A study of Homo sapiens with 6 samples.

Results

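The clustered protocadherin genes of human chromosome 5 lie in 3 neighbouring gene clusters, PCDHA, PCDHB and PCDHG. All CpGs at chr5:140160000-140895000 (hg19, 735 kb) were taken as members, whatever their methylation. A CpG was kept when at least 10 reads, both strands summed, covered it in each of 6 bisulfite sequencing libraries. This held for 202 of the 1002 CpGs of the region that any library listed (20.2%), out of 336571 such common CpGs in all. PCDHA (chr5:140165876-140391929) had 46 members of 335 listed CpGs, PCDHB (chr5:140430979-140627802) had 41 of 187, and PCDHG (chr5:140710252-140892546) had 93 of 396. The other 22 members lay outside the 3 clusters.

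The DNA was from PC-3, a human cell line established from a prostate carcinoma. In the SAM group, 3 libraries were made from cells given S-adenosylmethionine (SAM), the methyl donor of DNA methyltransferases, at 160 µM. In the control group, 3 libraries were made from cells given phosphate-buffered saline (PBS), and both treatments lasted 5 days. Both groups are the same line, so each result holds for 1 cell line. Whether the replicates were grown as separate cultures is not in the labels. A p-value therefore covers only the spread between these libraries, which may be technical.

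Clustered protocadherins are cell-surface adhesion proteins that give single neurons distinct surface identities. In PCDHA and PCDHG, each variable exon has its own promoter and is spliced to constant exons shared by the cluster, whereas PCDHB genes stand alone, each in a single coding exon. Most variable promoters carry a conserved element with a CGCT core, where the insulator protein CTCF and cohesin help to choose the promoter that is used, and a methylated promoter is typically a silent one. The genes at the end of PCDHA and PCDHG are called C-type genes and are used more constitutively in neurons. Joint methylation of the clusters has been described in several tumour types.

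Promoters were placed on hg19 by the spacing of their CpGs, since no hg19 annotation was used here. RefSeq (GRCh38.p14) lists 64 entries of the clusters by name. Besides protein-coding genes these include the locus names PCDHA@, PCDHB@ and PCDHG@, the constant region PCDHACT, the non-coding RNA PCDHB1-AS1 and pseudogenes. Of the 64 entries, 47 had a promoter of 300 bases in the table, running from 250 before the start to 50 after it. Listed positions fell on the CpGs of 3 promoters in the way the rule asks. These are PCDHGB6, a B-type variable gene of the gamma cluster, at chr5:140787338-140787637, PCDHGC3, a C-type gene, at chr5:140855283-140855582, and PCDHGC4, also C-type, at chr5:140864347-140864646, all on the plus strand. They are shown because they are the promoters whose methylation can be read by name. The capitals mark CpGs that at least 1 library listed, namely 12 of 16 CpGs in PCDHGB6, 9 of 18 in PCDHGC3 and 10 of 23 in PCDHGC4.
PCDHGB6: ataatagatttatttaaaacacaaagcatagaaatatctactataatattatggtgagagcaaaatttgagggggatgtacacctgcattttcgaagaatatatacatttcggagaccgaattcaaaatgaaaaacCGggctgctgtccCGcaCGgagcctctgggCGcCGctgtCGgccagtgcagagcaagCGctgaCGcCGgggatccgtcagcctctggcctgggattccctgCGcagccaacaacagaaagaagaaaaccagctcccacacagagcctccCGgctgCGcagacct
PCDHGC3: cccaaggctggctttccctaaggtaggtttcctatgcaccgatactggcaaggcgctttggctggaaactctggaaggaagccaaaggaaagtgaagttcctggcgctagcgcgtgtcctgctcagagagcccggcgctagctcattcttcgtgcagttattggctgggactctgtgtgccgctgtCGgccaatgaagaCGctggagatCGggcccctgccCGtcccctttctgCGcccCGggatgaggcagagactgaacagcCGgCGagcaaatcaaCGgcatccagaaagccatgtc
PCDHGC4: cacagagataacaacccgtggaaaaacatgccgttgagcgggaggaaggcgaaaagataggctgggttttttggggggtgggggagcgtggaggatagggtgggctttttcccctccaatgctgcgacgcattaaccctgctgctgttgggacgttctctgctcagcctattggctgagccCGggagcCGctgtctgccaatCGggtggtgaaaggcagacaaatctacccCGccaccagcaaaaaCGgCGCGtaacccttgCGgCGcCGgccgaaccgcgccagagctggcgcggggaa
In each of the 3 sequences the listed CpGs sit in the later part, towards the transcription start. The letters CGCT, searched on both strands, were found in 51 of the 52 promoter windows of the clusters in the table (98.1%), and in 70.0% of all 35116 promoter windows there. A letter match is a description, not a binding site. Promoter windows of the clusters held a median of 7.5 CpGs, against 14 over all windows.

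The placed protocadherin promoters were highly methylated in almost every library that covered them. At PCDHGB6 the mean over each library's own CpGs was 97.0% in SAM replicate 1 (10 CpGs), 98.1% in control replicate 1 (11 CpGs) and 97.1% in control replicate 3 (12 CpGs). SAM replicate 2 was at 100% on 1 CpG, SAM replicate 3 at 95.0% on 2 CpGs, and control replicate 2 had no CpG with enough reads. At PCDHGC4 the level was 99.0% in SAM replicate 1 (10 CpGs), 97.4% in control replicate 1 (7 CpGs) and 96.9% in control replicate 3 (10 CpGs), and the other libraries had none. So both promoters stood above 90% in every library that read them, on different CpGs in different libraries, and neither had a CpG common to all 6 on which groups could be tested.

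PCDHGC3 was mostly methylated in its promoter, with 1 CpG that varied from library to library. The 5 CpGs before it, read in SAM replicate 1, control replicate 1 and control replicate 3, ranged from 90.9% to 100%. The 3 CpGs after it were read in control replicate 3 alone, at 63.6%, 100% and 100% on 10 or 11 reads each. The CpG at chr5:140855522, base 240 of the window, was at 50%, 0.00% and 82.5% with SAM and at 98.5%, 100% and 69.2% in controls, in the order of replicates 1 to 3. It had the largest spread over libraries of any member (SD 37.7 points, n = 6). The reading of 0.00% rests on 0 of 27 reads, which allows up to 11.1%, and the reading of 100% rests on 32 of 32 reads with a Wilson 95% interval of 89.3% to 100%. SAM minus control was -45.1 points (standard error 26.0), with overlap between groups (two-sided exact permutation p = 0.20, adjusted p = 0.75 over 9 placed promoters). Without SAM replicate 2 the difference was -23.0 points. A stretch of 5 members downstream, chr5:140855796-140855838, was at 98.0% to 98.5% in the 6 libraries.

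**Figure D1:**
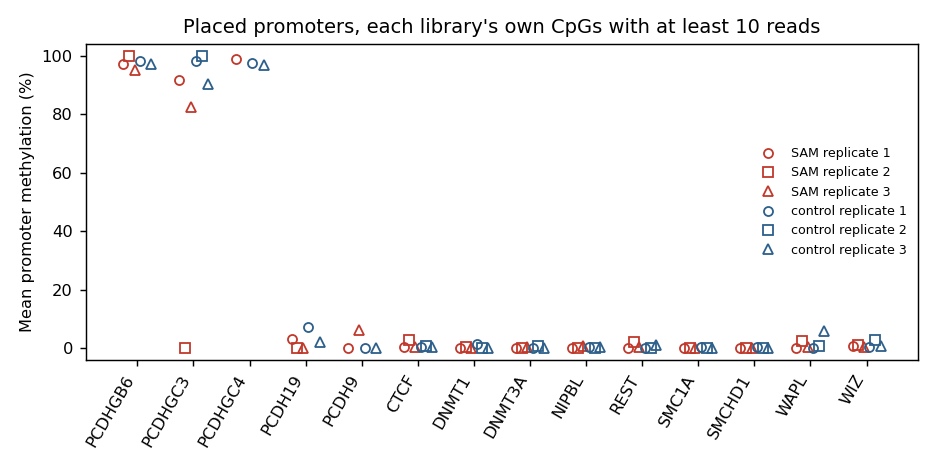
Mean methylation (%) of placed promoters, each point 1 library over its own CpGs with at least 10 reads (red SAM, blue control; shapes mark replicates). The points of PCDHGB6 and PCDHGC4 lie at 95.0% or above, 1 point of PCDHGC3 lies at 0, and every promoter outside the clusters lies below 10%.

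Promoters of genes that act on the clusters showed the opposite state, which is also common elsewhere. Of the common CpGs outside the region, 54.9% were under 20%, and those in windows with 40 or more listed CpGs per kb averaged 20.2%. Placement needs at least 8 listed CpGs, so promoters poor in CpGs are left out. Of 16 such regulators, 9 were placed: CTCF, the cohesin subunit SMC1A, the cohesin loader NIPBL, the cohesin release factor WAPL, the CTCF partner WIZ, the chromosome-structure protein SMCHD1, the repressor REST, and the DNA methyltransferases DNMT1 and DNMT3A. The 8 with common CpGs were between 0.00% and 9.12% in every library, and no groups were apart. CTCF was at 0.64%, 2.70% and 0.58% with SAM and 0.29%, 0.72% and 0.53% in controls over 25 common CpGs. WAPL held the top value, 9.12% in control replicate 3, with 4.86% or less in the other libraries. Over the 9 placed promoters tested, the lowest adjusted p of the exact permutation test was 0.75. Of 11 protocadherins outside the clusters, 2 were placed, both with no CpG common to all libraries. On each library's own CpGs, PCDH9 reached 6.25% at most and PCDH19 reached 7.38% at most.

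The region as a whole was far more methylated than the other common CpGs. Its mean in replicates 1 to 3 was 83.1%, 83.5% and 83.3% with SAM and 83.3%, 82.9% and 83.5% without it. The other 336369 common CpGs had a mean of 38.4%. The region stood 44.9 points higher, in 6 of 6 libraries (exact two-sided sign-flip permutation test, adjusted p = 0.0312, the smallest that 6 libraries allow). The median member was at 97.8% and the median of the other CpGs at 8.45%. Of the 202 members, 164 (81.2%) were over 80% in the mean of the 6 libraries, 16 were between 20% and 80%, and 22 (10.9%) were under 20%. Of the other common CpGs, 31.8% were over 80% and 54.9% were under 20%.

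Members had the higher mean at each local density of CpGs. In windows with 40 or more listed CpGs per kb, the kind of window that is mostly unmethylated elsewhere, 26 members had a mean of 56.5% against 20.2% for other CpGs. These members lay in chr5:140306001-140307000 (12 members, mean 8.80%) and chr5:140871001-140872000 (14 members, mean 97.4%). In this class the higher mean thus came from the second window alone, and the first was below the other CpGs. With 15 to 39 per kb the means were 92.5% (74 members) and 35.8%. With 5 to 14 per kb they were 82.1% (87 members) and 63.2%, and with 1 to 4 per kb 91.0% (15 members) and 72.6%. The gap was thus widest, as a difference in points, in the class of 15 to 39 per kb. These densities count listed CpGs, not all CpGs of the sequence.

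**Figure D2:**
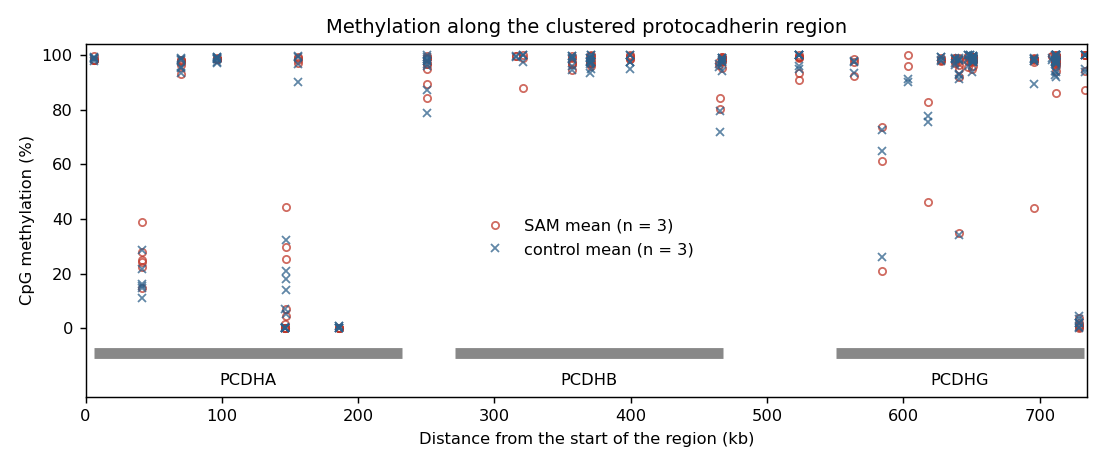
Methylation (%) of the 202 members against distance in kb from the start of the region, as the mean of 3 SAM libraries (red circles) and of 3 control libraries (blue crosses), with the 3 gene clusters as grey bars. Most points lie near the top of the plot, with 3 groups of low points in PCDHA, 1 at the end of PCDHG and none in PCDHB.

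The 3 gene clusters differed from each other. PCDHB was almost fully methylated, at 96.7%, 97.8% and 96.7% with SAM and 97.0%, 96.5% and 96.7% in controls. PCDHG was at 88.1%, 88.0% and 88.6% with SAM and 88.8%, 88.4% and 89.5% in controls. PCDHA was at 55.3%, 54.8% and 54.3% with SAM and 53.6%, 52.3% and 54.1% in controls. The order PCDHB, PCDHG, PCDHA held in 6 of 6 libraries. PCDHA minus PCDHB was -42.8 points, PCDHA minus PCDHG was -34.5 points and PCDHB minus PCDHG was 8.35 points, each with an adjusted p of 0.0312 (exact two-sided sign-flip permutation over 6 libraries). The size of these gaps depended on the CpGs read and on their weights. With CpGs weighted by reads, PCDHA minus PCDHB was -17.9 points, PCDHA minus PCDHG -14.6 and PCDHB minus PCDHG 3.29. On plus-strand reads the second was -20.4 points. On minus-strand reads the gaps were -66.6, -61.7 and 4.90 points. On each library's own CpGs PCDHA minus PCDHG was -22.8 points, and at a minimum of 20 reads PCDHB minus PCDHG was 13.0. The signs were the same in each of these. On the CpGs covered in the 4 deeper libraries, PCDHA minus PCDHB was -22.0 points and PCDHA minus PCDHG -17.0, and 5 libraries or fewer cannot reach an exact p under 0.0625.

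The low mean of PCDHA came from CpGs at or near 0 and from partly methylated CpGs, beside highly methylated ones. Of its 46 members, 23 were over 80%, 7 between 20% and 80%, and 16 under 20%. In PCDHB the counts were 39, 2 and 0. In PCDHG they were 80, 7 and 6, and all 22 members outside the clusters were over 80%, with a mean of 96.6%. Between 20% and 80% lay 15.2% of the PCDHA members, 4.88% in PCDHB and 7.53% in PCDHG, beside 13.4% of the other common CpGs.

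**Figure D3:**
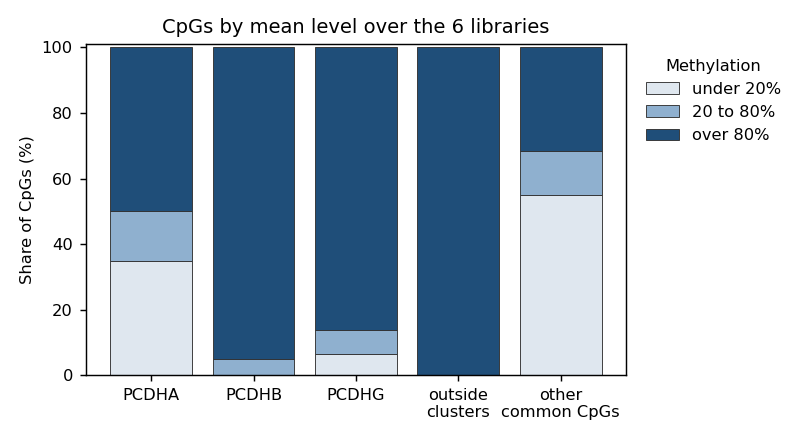
Share of CpGs (%) whose mean over the 6 libraries was under 20%, between 20% and 80%, or over 80%, for each gene cluster, for members outside the clusters and for the other common CpGs. The bar of PCDHA is the most mixed of the gene clusters, as 50% of its members were over 80% and 34.8% under 20%.

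Low methylation lay in a few short stretches. The members fell into 36 tiles of 1 kb, of which 28 held at least 3 members. Of these 28, 23 had a mean over 80%, 2 lay between 20% and 80% and 3 were under 20%. The tile with the lowest mean, chr5:140346001-140347000 in PCDHA, held 4 members at 0.00% in 4 libraries, 0.10% in SAM replicate 3 and 1.09% in control replicate 3. A lone member 367 bases before its first CpG, at chr5:140345913, was at 0.00% in all 6 libraries on at least 22 reads. The tile chr5:140888001-140889000, near the end of PCDHG, held 6 members at 1.73%, 1.16% and 1.37% with SAM and 2.71%, 0.60% and 2.95% in controls. In both tiles all 6 libraries were near 0 and the groups overlapped.

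The low tile chr5:140306001-140307000 of PCDHA had 2 different ends. Its first 7 members, within 51 bases, had a library mean of 0.00% to 3.26%. Its last 5 members, within 37 bases and 631 bases further on, had a library mean of 9.19% to 29.7%. These last CpGs varied between libraries in different ways. At chr5:140306858 the level was 20%, 62.1% and 7.65% with SAM and 24.6%, 8.33% and 8.75% in controls, and at chr5:140306894 it was 69.6%, 39.3% and 24.5% with SAM and 9.24%, 8.33% and 45.6% in controls. At chr5:140306890, 4 bases before the latter, it was 17.1%, 0.00% and 3.63% with SAM and 27.7%, 43.2% and 26.0% in controls. The groups did not overlap at that CpG, where SAM was lower, and its neighbour 4 bases on had the higher mean with SAM, 44.4% against 21.1%, with overlapping groups.

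The tile chr5:140201001-140202000 in PCDHA was partly methylated in a graded way. Over its 6 members the mean of the 6 libraries went up from 12.9% at chr5:140201464 to 33.8% at chr5:140201503. The tile mean was 22.7%, 21.8% and 32.5% with SAM and 21.2%, 15.7% and 17.1% in controls. Every SAM library was above every control library, by 0.58 points at the nearest, and SAM replicate 3 stood highest.

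Intermediate levels in PCDHG were close between libraries at some CpGs and far apart at others. In the tile chr5:140744001-140745000, the CpG at chr5:140744297 was at 18.7%, 31.6% and 12.7% with SAM and 23.3%, 31.2% and 24.1% in controls. Its neighbour 37 bases on, chr5:140744334, was at 69.8%, 75% and 76.1% with SAM and 72.5%, 70.6% and 74.1% in controls. The lower CpG was below the higher one in 6 of 6 libraries. A single partly methylated CpG at chr5:140800966 was at 37.8%, 33.3% and 33.3% with SAM and 39%, 26.7% and 37.3% in controls. The 5 members that follow it within 29 bases averaged 91.6% to 97.1% in the 6 libraries, so this CpG differed from its neighbours in every library. Other intermediate members of PCDHG, named after their values were seen, were far apart between libraries. At chr5:140778393 the level was 33.3%, 45.5% and 60% with SAM and 62.5%, 70% and 100% in controls, on 10 to 75 reads. Its neighbour 3 bases on, chr5:140778396, was at 80%, 100% and 68.4% with SAM and 62.5%, 63.6% and 100% in controls. The groups did not overlap at the first of these and overlapped at the second. The third tile of those nearest to 50% outside PCDHA, chr5:140625001-140626000 at the end of PCDHB, ranged from 85.3% to 97.1%.

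Such contrasts between neighbours were rare. Of 164 pairs of neighbouring members at most 100 bases apart, 2 differed by over 20 points in mean level, and the median difference was 0.949 points. Members between 20% and 80% had a median SD over the 6 libraries of 9.23 points, where read counting alone gives 6.67. Members over 80% had 1.64, where counting gives 1.59.

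**Figure D4:**
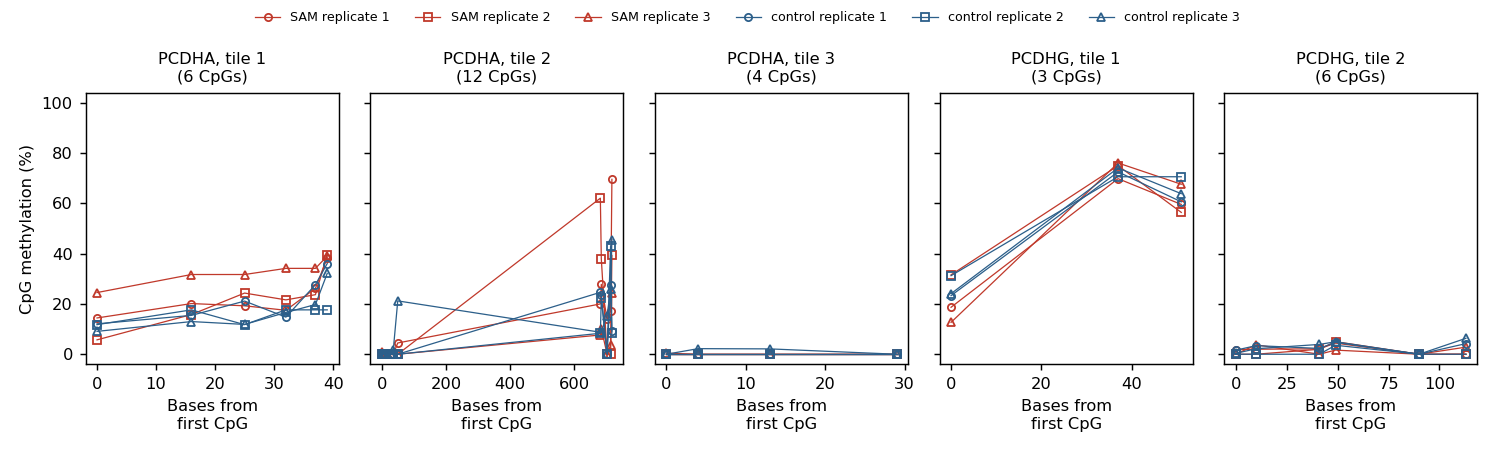
Methylation (%) of each member against its distance in bases from the first member, in the 5 tiles with at least 3 members and a mean under 80%, numbered in order along each cluster (red SAM, blue control; shapes mark replicates). PCDHA tile 3 and PCDHG tile 2 lie near 0 in all 6 libraries, in PCDHG tile 1 the first member is the lowest in all 6 libraries, and the last 5 members of PCDHA tile 2 scatter.

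The most methylated tiles were at 96.9% or above in every library. The tile chr5:140811001-140812000 of PCDHG held 19 members, the most of any, and its library means were 98.1% to 99.0%. The tiles chr5:140559001-140560000 in PCDHB, chr5:140256001-140257000 and chr5:140166001-140167000 in PCDHA and chr5:140787001-140788000 in PCDHG followed, with means over the 6 libraries of 98.6%, 98.5%, 98.4% and 98.4%. The members of the last of these lie 227 bases or more past the end of the PCDHGB6 window. Fully methylated tiles were thus found in every cluster, PCDHA included.

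A wider set of CpGs, those covered in SAM replicates 1 and 3 and control replicates 1 and 3, gave 469 CpGs of the region. Of these, 395 (84.2%) were over 80% and 46 were under 20%. Low CpGs formed 4 stretches of at least 3 CpGs. In PCDHA these were chr5:140306177-140306890 (19 CpGs) and chr5:140345913-140346309 (5 CpGs), and in PCDHG chr5:140888634-140888747 (6 CpGs). The fourth, chr5:140699905-140700494, lay between PCDHB and PCDHG with 11 CpGs at 2.58% and 4.85% with SAM and 1.31% and 5.55% in controls, on 10 to 85 reads, and none of its CpGs was a member. The nearest CpGs of this set on either side of it, 15917 and 18799 bases away, were at 94.8% and 95.5%. The other stretches had the next CpG before them at 98.2% to 99.2%, at least 13964 bases away. After them, the next CpG was at 37.2% 4 bases past the first stretch, at 47.8% 204 bases past the second, and at 90.3% 4144 bases past the one in PCDHG. So the next CpG past the 2 stretches of PCDHA was partly methylated, and the other borders were not resolved by the CpGs read here. A stretch ends by definition where a CpG passes the 20% limit. The highest CpG inside the first stretch was itself at 18.6%, so the end of that stretch rests on the limit.

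Between SAM and control, the mean of the region differed by less than the spread of the libraries. SAM libraries averaged 83.3% ± 0.194 (SD, n = 3) and control libraries 83.3% ± 0.30 (SD, n = 3). SAM minus control came to 0.043 points (standard error 0.206, two-sided exact permutation p = 1.0). With 3 libraries against 3 no p under 0.10 can be reached.

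Among the gene clusters, the groups were apart on the common CpGs in PCDHA and overlapped in PCDHB and PCDHG. In PCDHA, SAM libraries averaged 54.8% ± 0.507 (SD, n = 3) and control libraries 53.3% ± 0.938 (SD, n = 3). SAM was higher by 1.49 points (standard error 0.616, two-sided exact permutation p = 0.10, adjusted p = 0.30 over 3 clusters). The tile chr5:140201001-140202000 was picked for its difference between groups, the largest of the PCDHA tiles with at least 3 members. Leaving it out must therefore lower the PCDHA difference. Without its 6 members the PCDHA difference was 0.56 points with overlapping groups (exact permutation p = 0.70, a description only). On the CpGs of the 4 deeper libraries it was 0.16 points, also overlapping. At a minimum of 20 reads it was 1.02 points, again with overlap. The groups also overlapped when weighted by reads (0.21 points), on each library's own CpGs (2.2), on plus-strand reads (1.56) and on minus-strand reads (0.48). With any 1 library left out, groups that are apart on the same CpGs must stay apart, so that setting cannot test the separation. PCDHB differed by 0.31 points (exact p = 0.60, adjusted p = 0.60) and PCDHG by -0.65 points (standard error 0.347, exact p = 0.20, adjusted p = 0.30). On its 93 members, the groups of PCDHG were apart without SAM replicate 3 (-0.82 points) and without control replicate 2 (-0.87 points). They overlapped with any other library left out. On the CpGs of the 4 deeper libraries PCDHG differed by -0.73 points, and there its groups were apart. That is 2 libraries against 2, where the exact permutation p of 0.33 is the lowest possible. The PCDHA difference exceeded that of PCDHG by 2.13 points (exact permutation p = 0.10, adjusted p = 0.20 over 3 pairs of clusters). No difference between clusters in the effect of SAM passed the test.

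**Figure D5:**
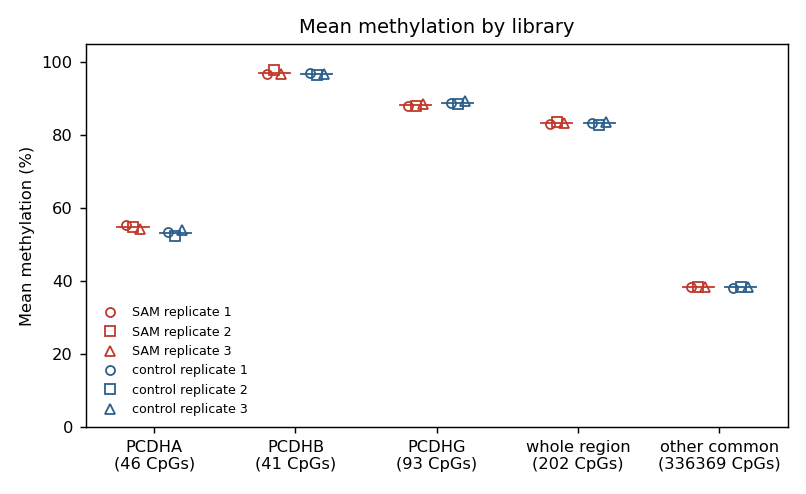
Mean methylation (%) of each library over the members of each gene cluster, over the region and over the other common CpGs (red SAM, blue control; shapes mark replicates, lines mark group means). PCDHA is the only gene cluster whose SAM points all lie above the control points, by 0.21 points at the nearest.

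Levels within each class of members also overlapped between groups. Members under 20% averaged 2.70% with SAM and 3.88% in controls (exact permutation p = 0.40, adjusted p = 0.70). Members between 20% and 80% averaged 46.5% with SAM and 45.4% in controls (exact p = 0.60, adjusted p = 0.70), and members over 80% averaged 97.7% and 97.6% (exact p = 0.70, adjusted p = 0.70). At the other common CpGs, groups were apart in the class over 80%, at 0.364 points, and in the class under 20%, at -0.092 points.

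Single members did not pass the test either. With edgeR's quasi-likelihood test on methylated and unmethylated reads, 0 of 191 testable members and 0 of 257696 CpGs in all (0.0%) had a Benjamini-Hochberg adjusted p under 0.05. Limma also called 0 of both. At an unadjusted p under 0.05, edgeR had 3 of 191 members (1.57%) against 2.81% of all CpGs, and limma had 5 (2.62%) against 3.49%. The groups did not overlap at 9 of 202 members (4.46%), 5 higher and 4 lower with SAM, against 4.90% of all common CpGs, 2.70% higher and 2.19% lower. The shares among members were thus close to or below the background.

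The 5 members with the smallest p in edgeR were in PCDHG and PCDHA, and each had an adjusted p of 0.890. At chr5:140871976 the level was 95.6%, 100% and 95.5% with SAM and 100%, 99.6% and 100% in controls (unadjusted p = 0.0394), a difference of -2.84 points that was -4.32 without SAM replicate 2. The CpG at chr5:140306890 in the low PCDHA tile had a difference of -25.4 points (unadjusted p = 0.0414). At chr5:140811013, in the uniform tile of 19 members, it was 98.8%, 99.2% and 99.5% with SAM and 98.6%, 97.6% and 98.0% in controls, a mean difference of 1.09 points (unadjusted p = 0.0435). The other two, chr5:140808546 and chr5:140808533, were at 100% in 5 libraries and at 93.4% and 95.7% in SAM replicate 3, so that library alone made their difference. Within the PCDHA tile chr5:140306001-140307000, chr5:140306890 differed by -9.72 points between SAM replicate 1 and control replicates 1 and 3, and by -41.4 points between SAM replicates 2 and 3 and control replicate 2, 2 sets of libraries taken by their coverage.

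Among the tiles, 0 of 28 in the region and 0 of 33583 in all (0.0%) were called by edgeR at an adjusted p under 0.05, and limma called 0. At an unadjusted p under 0.05, edgeR had 0 of 28 against 3.13% of all tiles, and limma had 1 of 28 (3.57%) against 4.23%. Groups were apart in 2 of 28 tiles (7.14%), 1 in each direction, against 9.09% of all tiles, of which 5.21% were higher and 3.88% lower. The 2 were chr5:140201001-140202000, 7.67 points higher with SAM (edgeR unadjusted p = 0.139) and 4.23 points higher without SAM replicate 3, and chr5:140480001-140481000 in PCDHB, with a difference of -3.56 points. The latter was at 96.5%, 93.3% and 96.8% with SAM and 100%, 100% and 97.3% in controls, over 3 members (edgeR unadjusted p = 0.159). Neither was set apart by the test across all tiles. The other tiles with the smallest p in edgeR, chr5:140810001-140811000 in PCDHG, chr5:140683001-140684000 outside the clusters and chr5:140559001-140560000 in PCDHB, differed by 0.87, -1.47 and 1.22 points, with overlapping groups. Each moved by over 1.5 times when a single library was left out. The range for chr5:140810001-140811000 was 0.34 without SAM replicate 1 to 1.58 without control replicate 2. For chr5:140683001-140684000 it reached -0.83 without control replicate 3. For chr5:140559001-140560000 it was 0.72 without control replicate 2 to 1.94 without SAM replicate 3.

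Depth differed between libraries. Reads over all listed positions ranged from 33056018 to 183523792, and the median number of reads at a member ranged from 24 in control replicate 2 to 269.5 in SAM replicate 1. The region had 261 to 874 CpGs listed in a library. For values within libraries of more like coverage, 2 sets were taken, SAM replicate 1 with control replicates 1 and 3 and SAM replicates 2 and 3 with control replicate 2. The rank correlation of reads at members was 0.490 to 0.968 within a set and 0.0323 to 0.846 between sets, so these ranges overlap and the sets are not cleanly separate. Within these sets the PCDHA tile chr5:140201001-140202000 was 3.53 and 11.5 points higher with SAM. The part of coverage in that difference was not tested. At the 10 members read on both strands in every library, the strands gave means of 97.8% to 98.7% on the plus strand and 97.1% to 98.8% on the minus strand.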

How the data were processed

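Genomic DNA of 6 PC-3 libraries was bisulfite sequenced. Per the file headers, the deposited values are, for each cytosine, a read count (coverage) and the percent of those reads with C and with T. The submitters' processing notes list CASAVA 1.8.2, FastQC 0.10.0, Bismark 0.7.4, methylKit 0.5.3 and hg19, with no role or order. Library type and duplicate removal were not given in the sources used here, so intervals and limits cover counting error only. Positions under 10 reads were not listed.

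Methylated reads were recovered as coverage times percent C, within 0.19 of a read of a whole number in the region. Each minus-strand position was merged with the plus-strand position 1 base before. A library's mean weights each common CpG equally. Means were compared with exact two-sided permutation tests (sign flips over libraries for levels between clusters), with Benjamini-Hochberg adjustment. CpGs and 1 kb tiles with at least 3 common CpGs were tested over the whole genome with edgeR 4.0.16 (R 4.3.3), leaving out features with 0 methylated or 0 unmethylated reads over all libraries, at an adjusted p under 0.05. Limma 3.58.1 on log2 ratios was an alternative. Other alternatives were a minimum of 20 reads, weighting by reads, own CpGs, single strands, a replicate block, other tile minimums, no feature left out, leaving out each library, and each set of like coverage. The 4 deeper libraries and the removal of 1 tile were added after seeing the data.

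A promoter was placed where at least 8 listed positions fell on its CpGs, none fell elsewhere in it, and its best place had at least 3 more than the next. The first limit was 5. It was raised after the data were seen, because 2 cluster promoters then matched a place outside the region. The 4 distances between neighbouring placed windows of the clusters, second starts of PCDHGB6 and PCDHGC4 included, equalled those in the RefSeq build. Distances between starts of the same gene compare overlapping windows that share listed CpGs, so these add little to the check. Named CpGs and tiles are those past the threshold or, with under 5 such, the 5 of smallest p, and the 5 tiles of highest, lowest and nearest to 50% mean level. Among the last 2 groups of 5, 3 tiles are the same. Members and lists were chosen with earlier results of these data known.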

Additional observations from a re-analysis of the deposited data

How the results depend on the processing

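The order of the gene clusters and the excess of the region over other CpGs kept their direction under every alternative run. On the 4 deeper libraries, chosen after seeing the data, PCDHA minus PCDHB was -22.0 points, PCDHA minus PCDHG -17.0, PCDHB minus PCDHG 4.96 and region minus other CpGs 46.7, with an exact p of 0.125, the smallest that 4 libraries allow. Leaving out 1 library, where 5 allow no exact p under 0.0625, gave -43.1 to -42.6, -34.8 to -34.2, 8.07 to 8.57 and 44.8 to 44.9 points. The counts of members and tiles called were 0 under every alternative, and so was that of placed promoters, where the design cannot pass.

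The difference of PCDHA kept its sign, falling to 0.16 on the deeper libraries and 0.21 weighted by reads. All the other mean differences and treatment effects changed sign under at least 1 alternative. For the region mean it was -0.22 at a minimum of 20 reads, -0.25 weighted by reads, -0.12 on the plus strand, -0.42 on the 4 deeper libraries, -0.31 within SAM replicate 1 and control replicates 1 and 3, and -0.12 to 0.17 leaving out 1 library. For PCDHB it was -1.02 on the plus strand, -0.48 on the deeper libraries, -0.19 within that set and -0.044 to 0.51 leaving out 1 library. For PCDHG it was 0.31 weighted by reads. For members at 20% to 80% it was -0.18 on own CpGs, -3.21 on the plus strand, -0.74 on the deeper libraries, -1.76 within the set and -2.53 to 2.58 leaving out 1 library. For members over 80% these were -0.080 on own CpGs, -0.38 on the deeper libraries, -0.15 within the set and -0.13 to 0.24. For those under 20% they were 0.78 on the plus strand and -1.39 to 0.95 leaving out 1 library. On own CpGs, single strands, the deeper libraries and leaving out 1 library, the level classes were drawn anew from the values used. Leaving out 1 library gave 13 to 17 CpGs at 20% to 80%, against 16 in the main setting. Under 20% it gave 21 to 24, against 22. A change of sign in a class thus cannot be laid to the library left out. The treatment effect of PCDHA minus PCDHB was -0.49 weighted by reads and -0.17 on the minus strand, that of PCDHA minus PCDHG -0.11 weighted by reads, and that of PCDHB minus PCDHG -0.32 on the plus strand. The tile chr5:140810001-140811000 was at -1.09 among SAM replicates 2 and 3 and control replicate 2. The cause was not tested.

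Same-numbered libraries did not deviate together over members (correlations -0.178, -0.136 and -0.183). Read counting adds to these deviations, so the check cannot tell whether same-numbered libraries were grown or prepared together. With the replicate block 0 members and 0 tiles were called, and the exact p of 3 pairs cannot go below 0.25. Few reads at some members, down to 10, limit what single CpGs can show.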
